A study of Homo sapiens with 4 samples.

Results

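The human mitochondrial genome encodes 37 genes, and all of them had a row in the deposited table of 64252 gene IDs. The members were taken as every ID that the GENCODE annotation places on chromosome M, and their symbols all begin with MT-. They comprised 13 mRNAs, 2 rRNAs and 22 tRNAs. The libraries came from J.gamma1, a line of T-cell acute lymphoblastic leukaemia derived from Jurkat, in which the signalling enzyme PLCG1 is missing. The treated cells received FB23-2, which inhibits the RNA demethylase FTO, at 10 µM over 48 h, and the control cells received only the DMSO vehicle, at under 0.1%, over the same time. Each group held 2 biological replicates of this same line without further modification, and 1 line cannot stand for the leukaemia in general. The comparison asked which transcripts differ after exposure to the inhibitor.

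Both strands of the mitochondrial genome are transcribed over nearly their whole length into long polycistronic RNAs. The heavy-strand transcript carries both rRNAs, most mRNAs and most tRNAs, and the light-strand transcript carries MT-ND6 and the remaining tRNAs. In the usual account, called tRNA punctuation, tRNAs sit between the longer genes and are cut out by RNase P at the 5′ side and by ELAC2 at the 3′ side, which frees the mRNAs and rRNAs. The mRNAs then differ in level through processing and stability rather than through separate promoters. Each encodes a subunit of respiratory complex I, III, IV or V. Here a gene on the plus strand of chromosome M is called a heavy-strand transcript and a gene on the minus strand a light-strand transcript.

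Library totals were 37804516 and 33983246 counts with FB23-2 and 24615359 and 34897961 in control, so that 3 counts corresponded to 0.0794 to 0.122 CPM, the counts of a gene scaled to library size. T-cell genes were present (LCK at 429.9 to 588.8 CPM and CD3G at 97.9 to 156.5 CPM over the libraries), and the B-cell gene MS4A1 stood at 0 to 0.324 CPM. Levels below are CPM after TMM scaling. A log2 fold change sets FB23-2 over control and carries its standard error (SE). Adjusted p values come from edgeR's quasi-likelihood test over 18817 genes. Of these genes 42.1% were called, 21.8% being higher and 20.3% lower, at an adjusted p under 0.05, and the groups did not overlap in 70.8%. The strand setting of the authors' counting is not given in the sources used here. Reads from the heavy-strand and light-strand transcripts of 1 stretch of DNA therefore cannot be told apart, which touches every light-strand gene described here. How reads spanning 2 adjacent genes were counted is likewise not given, so a tRNA row cannot be read as the level of mature tRNA.

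The tRNA rows that the results turn on are shown first, in the sense of the RNA and written with T, from GENCODE release 29 on GRCh38. Capitals mark the anticodon that reads the codons of each tRNA's amino acid. The isoleucine tRNA MT-TI and the glutamine tRNA MT-TQ lie on opposite strands and overlap at their 3′ ends. The alanine, asparagine, cysteine and tyrosine tRNAs form the light-strand cluster between MT-ND2 and MT-CO1. The serine tRNA MT-TS1 lies opposite the bases that directly follow MT-CO1, and the proline tRNA MT-TP is the light-strand gene nearest to the light-strand promoter. MT-TV, the valine tRNA, separates the 2 rRNAs on the heavy-strand transcript.
MT-TI: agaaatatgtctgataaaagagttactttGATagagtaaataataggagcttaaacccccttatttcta
MT-TQ: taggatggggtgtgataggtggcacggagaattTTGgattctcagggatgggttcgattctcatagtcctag
MT-TA: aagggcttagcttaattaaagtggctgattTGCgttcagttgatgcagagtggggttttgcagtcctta
MT-TN: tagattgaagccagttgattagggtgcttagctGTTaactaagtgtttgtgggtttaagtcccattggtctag
MT-TC: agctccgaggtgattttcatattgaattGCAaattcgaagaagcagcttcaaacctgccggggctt
MT-TY: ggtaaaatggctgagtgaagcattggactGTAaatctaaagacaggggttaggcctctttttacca
MT-TS1: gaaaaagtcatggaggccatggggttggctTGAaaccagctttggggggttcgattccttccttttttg
MT-TP: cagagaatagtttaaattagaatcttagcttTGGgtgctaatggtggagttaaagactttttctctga
MT-TV: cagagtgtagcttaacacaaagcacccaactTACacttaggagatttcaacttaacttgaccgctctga

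The mRNAs are shown by their last 24 bases, because the ends of neighbouring genes differ. Capitals mark the stop codon, or the first bases of one that the poly(A) tail completes after cleavage. Of the 13 mRNAs, 6 end in such an incomplete codon, among them MT-CYB, MT-CO3 and MT-ND2, while MT-CO1 and MT-ND6 end in triplets that the mitochondrial code reads as stops.
MT-CYB: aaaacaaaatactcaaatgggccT
MT-CO3: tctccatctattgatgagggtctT
MT-ND2: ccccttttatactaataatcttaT
MT-ND4: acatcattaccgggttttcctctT
MT-CO1: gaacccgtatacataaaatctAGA
MT-ND6: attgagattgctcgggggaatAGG

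Counts on chromosome M were 6.39% and 6.37% of all counts with FB23-2, against 6.24% and 5.96% in control. The groups did not overlap, and the difference of 0.279 percentage points had an exact two-sided permutation p of 0.33, the smallest that 2 against 2 libraries can give. It was 0.422 points without control replicate 1 and 0.135 points without control replicate 2. In bulk RNA, a different number of cells of a kind and a different amount of RNA per cell cannot be told apart. The 13 mRNAs held 76.6% and 76.8% of the chromosome M counts with FB23-2 and 76.3% and 76.5% in control. The 2 rRNAs held 21.8% and 21.7% with FB23-2 and 22.3% and 22.1% in control. The tRNA rows together took 1.59% and 1.58% with FB23-2 and 1.42% and 1.41% in control. These are shares of counts, and whether they follow the make-up of RNA in the cells was not tested.

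Of the 37 members, 36 passed the filter on low counts and were tested. Beside 21.8% higher and 20.3% lower over all tested genes, 11 of the 36 members were called higher, 18 lower and 7 did not pass. Without control replicate 2, 7 were higher and 15 lower. MT-TD, the aspartate tRNA, was left out by the filter, having 7 and 6 counts with FB23-2 and 11 and 8 counts in control. MT-TW and MT-TQ were kept mainly through their control libraries: MT-TW was under the filter in both FB23-2 libraries and MT-TQ in 1 of them. A member kept in this way is bound to differ, and its call is given only as a description. Over the 34 members above the filter in every library, 11 were higher and 16 lower. The groups did not overlap for 35 of the 36 tested members, the exception being MT-RNR2, beside 70.8% of all tested genes.

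**Figure D1:**
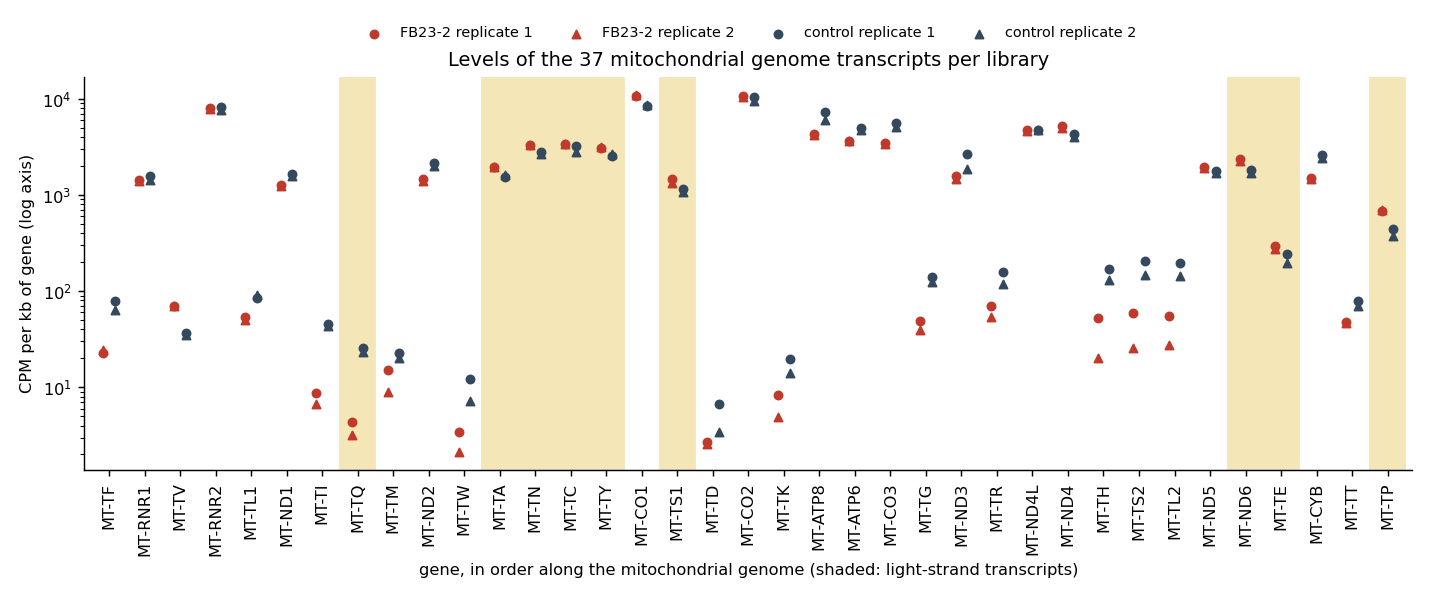
CPM per kilobase of gene (log axis) for the 37 mitochondrial genes in genome order, with circles for replicate 1 and triangles for replicate 2. FB23-2 libraries are red and control libraries are dark blue. Light-strand genes are shaded, and the light-strand cluster from MT-TA to MT-TY stands at 1965 to 3364 CPM per kb with FB23-2, while MT-TI stands at 7.70.

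Among the 13 mRNAs, 4 were higher and 6 lower, and 3 did not pass, for a median log2 fold change of -0.35 against 0.00 over all tested genes. Over all tested genes 21.8% were higher and 20.3% lower. The 12 heavy-strand mRNAs come from 1 transcript, yet 3 of them rose and 6 fell. The position along that transcript did not order them: over the 12, distance from the start of MT-TF and log2 fold change had a Spearman rho of -0.12, given as a description.

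Complex I takes electrons from NADH and holds 7 mitochondrial subunits, of which 3 rose, 2 fell and 2 did not pass. The shares to set beside this and the counts of the other complexes are 21.8% higher and 20.3% lower over all tested genes. MT-ND1, the first mRNA after the rRNAs, had 1227 and 1191 CPM with FB23-2, against 1592 and 1495 CPM in control (-0.35 ± 0.04 SE, edgeR adjusted p = 0.000102). MT-ND2, which lies between the methionine and tryptophan tRNAs, had 1517 and 1457 CPM with FB23-2, against 2261 and 2095 CPM in control. It fell by 0.55 on the log2 scale, with an SE of 0.04 (edgeR adjusted p = 1.09e-05). In both genes each FB23-2 library lay below each control library by more than the distance between replicates.

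MT-ND3 had 539 and 507 CPM with FB23-2, against 918 and 649 CPM in control. The control libraries differed from each other more than the FB23-2 libraries did from the lower of them, and the gene did not pass (-0.58 ± 0.24 SE, edgeR adjusted p = 0.202). With 1 library left out, the log2 fold change of MT-ND3 ran between -0.81 and -0.33. A fit without 1 control no longer holds the spread between the controls, so it cannot decide whether the gene differs.

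MT-ND4L and MT-ND4 overlap and are known to be kept on 1 mRNA, yet their rows differed. MT-ND4 had 7181 and 6910 CPM with FB23-2, against 5871 and 5569 CPM in control, and rose (0.30 ± 0.04 SE, edgeR adjusted p = 0.000157). MT-ND4L had 1392 and 1385 CPM with FB23-2, against 1410 and 1394 CPM in control, and did not pass (-0.01 ± 0.03 SE, edgeR adjusted p = 0.767). Its sign turned with library size scaling. Counted as 1 feature, the pair rose by 0.24. The overlap is short, as MT-ND4 starts at chromosome M 10760 and MT-ND4L ends at 10766. How reads on the shared bases were counted is not given, so the split between the rows is uncertain. The reason for the difference was not tested.

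MT-ND5 follows the run of histidine, serine and leucine tRNAs and had 3539 and 3454 CPM with FB23-2, against 3229 and 3068 CPM in control. It rose by a small amount (0.15 ± 0.04 SE, edgeR adjusted p = 0.00719). That call was lost without FB23-2 replicate 1 (adjusted p = 0.0739) and without control replicate 2 (0.145), and the adjusted p ran between 0.000587 and 0.145 over the alternatives. MT-ND6 is the one mRNA of the light strand and had 1245 and 1177 CPM with FB23-2, against 953 and 888 CPM in control. It showed the highest fold change of the mRNAs (0.40 ± 0.04 SE, edgeR adjusted p = 0.000104). MT-ND5 mRNA is known to extend opposite MT-ND6. With the strand setting not given, whether its reads enter the MT-ND6 row was not tested. The count ratio of MT-ND6 to MT-ND5 was 0.352 and 0.341 with FB23-2 and 0.295 and 0.290 in control.

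Complex III, which passes electrons from ubiquinol to cytochrome c, has 1 mitochondrial subunit, cytochrome b. Its gene MT-CYB had 1732 and 1691 CPM with FB23-2, against 2960 and 2769 CPM in control. It fell further than the other mRNAs (-0.74 ± 0.04 SE, edgeR adjusted p = 1.51e-06) and passed under all 14 alternatives, with values of -0.79 to -0.70. MT-CYB, at chromosome M 14747 to 15887, is the last heavy-strand mRNA. No tRNA of its own strand precedes it, since MT-ND6 and MT-TE of the light strand fill most of the 598 bases between it and MT-ND5.

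Complex IV, cytochrome c oxidase, has 3 mitochondrial subunits, of which 1 rose, 1 fell and 1 did not pass. MT-CO1, the catalytic subunit, had 16683 and 16983 CPM with FB23-2, against 13070 and 13258 CPM in control, and rose (0.35 ± 0.03 SE, edgeR adjusted p = 1.4e-05). MT-CO2, which receives electrons from cytochrome c, had 7273 and 7140 CPM with FB23-2, against 7110 and 6510 CPM in control. It did not pass (0.08 ± 0.04 SE, edgeR adjusted p = 0.150), except with library size scaling (adjusted p = 0.0196) and with a replicate block (0.0296), and the adjusted p ran between 0.0196 and 0.796 over the alternatives. MT-CO3 had 2709 and 2644 CPM with FB23-2, against 4385 and 3970 CPM in control. It fell by 0.64 on the log2 scale, with an SE of 0.05 (edgeR adjusted p = 1.36e-05).

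Complex V, the ATP synthase, has 2 mitochondrial subunits, whose reading frames overlap on 1 mRNA that also borders MT-CO3. MT-ATP6 had 2507 and 2457 CPM with FB23-2, against 3413 and 3259 CPM in control (-0.43 ± 0.03 SE, edgeR adjusted p = 1.46e-05). MT-ATP8 had 893 and 875 CPM with FB23-2, against 1496 and 1248 CPM in control (-0.63 ± 0.10 SE, edgeR adjusted p = 0.0114). The MT-ATP8 call was lost without FB23-2 replicate 1 (adjusted p = 0.153) and without FB23-2 replicate 2 (0.174), and the adjusted p ran between 4.8e-06 and 0.174 over the alternatives. Counted as 1 feature, the pair fell by 0.48.

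These changes can also be stated as shares of the 13 mRNAs, which do not depend on scaling to nuclear genes. MT-CO1 made up 34.4% and 35.5% of mitochondrial mRNA counts with FB23-2, against 26.9% and 28.7% in control. MT-CYB made up 3.58% and 3.53% with FB23-2, against 6.08% and 6.00% in control. There were 9.63 and 10.04 counts on MT-CO1 per count on MT-CYB with FB23-2, against 4.42 and 4.79 in control. The corresponding ratio of MT-ND4 to MT-ND2 was 4.73 and 4.74 with FB23-2 and 2.60 and 2.66 in control. Each of these ratios had an exact two-sided permutation p of 0.33, the smallest possible here. With libraries scaled to the summed mitochondrial mRNA, the counts were again 4 higher and 6 lower, beside 18.6% higher and 20.8% lower over all genes.

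**Figure D2:**
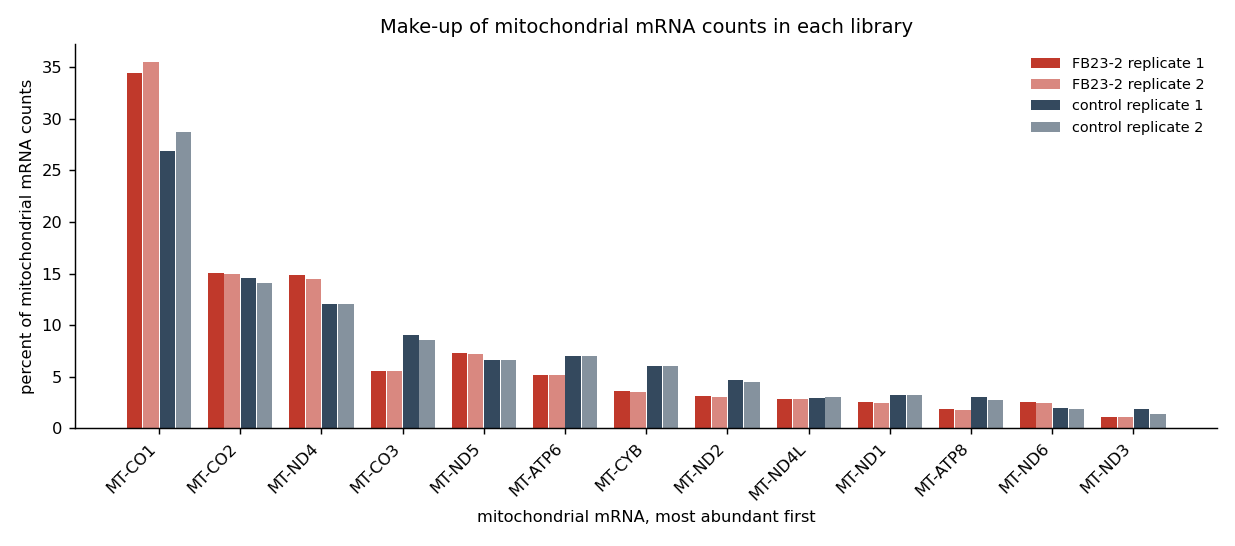
Share of mitochondrial mRNA counts held by each of the 13 mRNAs, in percent, with 1 bar per library and the mRNAs in falling order of mean share. Red bars are FB23-2 and dark blue bars control, replicate 2 being paler. MT-CO1 and MT-ND4 hold more in both FB23-2 libraries, and MT-CO3, MT-ATP6, MT-CYB and MT-ND2 hold less.

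The features of sequence and position that the mRNAs share did not separate the directions fully. Of 8 mRNAs directly preceded by a tRNA of their own strand, within 2 bases, 2 rose and 3 fell. Of the other 5 (MT-CO1, MT-ATP6, MT-CO3, MT-ND4 and MT-CYB), 2 rose and 3 fell as well. Among the 6 mRNAs with an incomplete stop codon, 4 fell (MT-ND1, MT-ND2, MT-CO3 and MT-CYB), 1 rose (MT-ND4) and MT-ND3 did not pass. Among the 7 with a complete stop, 2 fell and 3 rose. With 21.8% of all tested genes called higher and 20.3% lower, these splits of few genes are given only as a description.

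The rRNAs of the mitochondrial ribosome lie nearest to the heavy-strand promoter, and neither passed. MT-RNR2, the large-subunit 16S rRNA, had 12417 and 12169 CPM with FB23-2, against 12705 and 11981 CPM in control (-0.01 ± 0.03 SE, edgeR adjusted p = 0.916). The groups overlapped, and the sign turned with library size scaling and without FB23-2 replicate 2 or control replicate 1. MT-RNR1, the small-subunit 12S rRNA, had 1367 and 1336 CPM with FB23-2, against 1500 and 1370 CPM in control (-0.09 ± 0.04 SE, edgeR adjusted p = 0.156). It passed with upper quartile scaling (adjusted p = 0.0413) and with a replicate block (0.0484), and the adjusted p ran between 0.0413 and 0.655 over the alternatives. There were 9.08 and 9.11 counts of MT-RNR2 per count of MT-RNR1 with FB23-2, against 8.47 and 8.74 in control.

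The tRNA rows of the heavy-strand transcript were low and mostly fell. Of 12 that were above the filter in both groups, 10 fell, 1 rose and 1 did not pass. Over all tested genes 20.3% were lower and 21.8% higher. Their summed counts were 1347 and 907 with FB23-2, against 2044 and 2361 in control. Per kilobase, the 14 heavy-strand tRNAs averaged 2.62 to 69.97 CPM with FB23-2 and 5.07 to 177.4 CPM in control. The mRNA with the lowest level per kilobase, MT-ND1, stood above all of them, with FB23-2 libraries averaging 1265 and control libraries 1615 CPM per kb.

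MT-TI, which follows MT-ND1, had 0.602 and 0.461 CPM with FB23-2, against 3.15 and 2.99 CPM in control (23 and 16 counts against 76 and 103). It showed the lowest fold change of the heavy-strand genes (-2.51 ± 0.32 SE, edgeR adjusted p = 0.000241). The phenylalanine tRNA MT-TF, the first gene after the promoter, had 1.60 and 1.73 CPM with FB23-2, against 5.64 and 4.47 CPM in control. It fell by 1.58, with an SE of 0.24 (edgeR adjusted p = 0.000677). Both calls held under all 14 alternatives.

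The histidine, serine and leucine tRNAs MT-TH, MT-TS2 and MT-TL2 form an unbroken run between MT-ND4 and MT-ND5, both of which rose. MT-TH had 3.61 and 1.38 CPM with FB23-2, against 11.6 and 8.95 CPM in control. MT-TS2 had 3.51 and 1.53 CPM with FB23-2, against 12.2 and 8.77 CPM in control. MT-TL2 had 3.95 and 1.96 CPM with FB23-2, against 14.1 and 10.1 CPM in control. All fell, with log2 fold changes of -1.98 for MT-TH, -1.995 for MT-TS2 and -1.98 for MT-TL2 (SE 0.36, 0.34 and 0.31, edgeR adjusted p = 0.0067, 0.00435 and 0.00251). FB23-2 replicate 1 stood above FB23-2 replicate 2 in each gene of the run, and the genes adjoin on 1 transcript. Without FB23-2 replicate 1 the fold changes were -2.89, -2.76 and -2.61, and without FB23-2 replicate 2 they were -1.48, -1.54 and -1.58.

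The glycine tRNA MT-TG, between MT-CO3 and MT-ND3, had 3.35 and 2.68 CPM with FB23-2, against 9.46 and 8.51 CPM in control (-1.56 ± 0.18 SE, edgeR adjusted p = 0.000141). The arginine tRNA MT-TR, after MT-ND3, had 4.58 and 3.49 CPM with FB23-2, against 10.4 and 7.78 CPM in control (-1.13 ± 0.21 SE, edgeR adjusted p = 0.0019). The first leucine tRNA, MT-TL1, had 4.08 and 3.75 CPM with FB23-2, against 6.39 and 6.91 CPM in control (-0.77 ± 0.17 SE, edgeR adjusted p = 0.00611). The MT-TL1 call was lost without control replicate 2 (adjusted p = 0.0695, range 0.00463 to 0.0695).

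Calls on the remaining heavy-strand tRNAs were less stable. MT-TT, the threonine tRNA after MT-CYB, had 3.11 and 3.08 CPM with FB23-2, against 5.23 and 4.59 CPM in control (-0.65 ± 0.20 SE, edgeR adjusted p = 0.0263, range 0.0202 to 0.121). The lysine tRNA MT-TK had 0.576 and 0.346 CPM with FB23-2, against 1.37 and 0.988 CPM in control (-1.29 ± 0.44 SE, edgeR adjusted p = 0.0408, range 0.029 to 0.182). The tryptophan tRNA MT-TW had 9 and 5 counts with FB23-2, against 20 and 17 in control (-1.70 ± 0.60 SE, edgeR adjusted p = 0.0467, range 0.0392 to 0.240). All of these lost their calls without any 1 library and with DESeq2. MT-TW was under the filter in both FB23-2 libraries, so its call is given only as a description. The methionine tRNA MT-TM did not pass (-0.80 ± 0.37 SE, edgeR adjusted p = 0.118).

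MT-TV was the heavy-strand tRNA that rose. It had 4.84 and 4.81 CPM with FB23-2, against 2.53 and 2.41 CPM in control (0.97 ± 0.21 SE, edgeR adjusted p = 0.00445). It sits between MT-RNR1 and MT-RNR2, neither of which passed, and mature MT-TV is known as a structural RNA of the human mitochondrial large ribosomal subunit. Its call was lost without control replicate 2 (adjusted p = 0.0531, range 0.00336 to 0.0531).

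**Figure D3:**
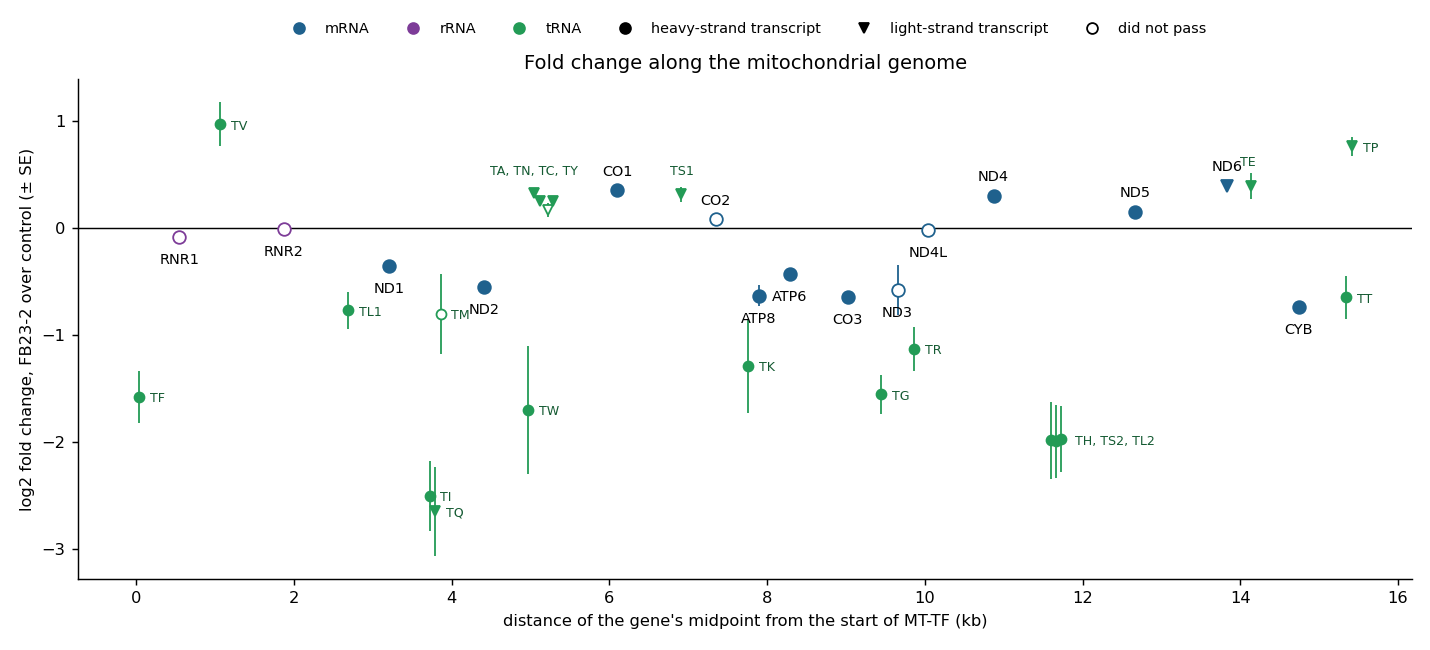
Log2 fold change, FB23-2 over control, with SE, for the 36 tested members against the distance of each gene's midpoint from the start of MT-TF in kilobases. Circles are heavy-strand and triangles light-strand genes, filled where the gene passed. Light-strand genes other than MT-TQ lie above 0, and heavy-strand tRNAs other than MT-TV lie below it.

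The light-strand rows other than MT-TQ stood apart from the heavy-strand tRNAs in level and, MT-TV aside, in direction. Genes of the light strand took 3.50% and 3.43% of chromosome M counts with FB23-2, against 2.78% and 2.77% in control. Of the 8 light-strand tRNAs, 7 were above the filter in both groups, and of these 6 rose, 0 fell and 1 did not pass. Across all tested genes, 21.8% were higher and 20.3% lower. Summed counts of the light-strand tRNAs were 37016 and 33330 with FB23-2 and 19796 and 26926 in control. That made 27.5 and 36.7 light-strand counts per heavy-strand tRNA count with FB23-2, against 9.68 and 11.4 in control (exact two-sided permutation p = 0.33, the smallest possible).

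The cluster between MT-ND2 and MT-CO1 had the highest tRNA levels, at 1965 to 3364 CPM per kb with FB23-2 and 1568 to 3001 CPM per kb in control. MT-TA had 136 and 135 CPM with FB23-2, against 106 and 110 CPM in control (0.32 ± 0.05 SE, edgeR adjusted p = 0.000474). MT-TN had 239.1 and 239.2 CPM with FB23-2, against 206 and 196 CPM in control (0.25 ± 0.04 SE, edgeR adjusted p = 0.00115). MT-TY had 202 and 207 CPM with FB23-2, against 168 and 176 CPM in control (0.25 ± 0.04 SE, edgeR adjusted p = 0.00136). These 3 rows passed under all 14 alternatives. MT-TC had 223 and 221 CPM with FB23-2, against 212 and 184 CPM in control, and did not pass (0.17 ± 0.06 SE, edgeR adjusted p = 0.0612), except with library size scaling, with a replicate block or without control replicate 1, and the adjusted p ran between 0.0136 and 0.418 over the alternatives. The heavy-strand genes on either side went opposite ways, MT-ND2 lower and MT-CO1 higher.

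The 3′ end of MT-TS1 lies, on the opposite strand, at the base after MT-CO1 ends, and MT-CO1 mRNA is known to run on into these bases. MT-TS1 had 101 and 91.2 CPM with FB23-2, against 80.5 and 74.9 CPM in control (0.31 ± 0.07 SE, edgeR adjusted p = 0.00414). Its counts were 0.607% and 0.537% of those of MT-CO1 with FB23-2, against 0.616% and 0.565% in control, and the groups overlapped in this ratio. Whether reads of MT-CO1 mRNA enter the MT-TS1 row was not tested. The MT-TS1 call was lost without FB23-2 replicate 1 (adjusted p = 0.0513) and without control replicate 2 (0.0589), and the adjusted p ran between 0.000767 and 0.0589 over the alternatives.

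MT-TP showed the highest fold change of the light strand. It had 46.6 and 48.0 CPM with FB23-2, against 30.5 and 25.6 CPM in control (0.77 ± 0.09 SE, edgeR adjusted p = 0.00012), and passed under all 14 alternatives. Its heavy-strand neighbours MT-CYB and MT-TT went the other way. There were 15.0 and 15.6 counts on MT-TP per count on MT-TT with FB23-2, against 5.83 and 5.59 in control. MT-TE, the glutamate tRNA beside MT-ND6, had 20.6 and 18.8 CPM with FB23-2, against 16.9 and 13.6 CPM in control. It passed with an edgeR adjusted p of 0.0279 (0.39 ± 0.12 SE), but not without FB23-2 replicate 1, without control replicate 2, without the filter or with DESeq2, and the adjusted p ran between 0.0153 and 0.269 over the alternatives.

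MT-TQ was the light-strand row that was lower, with 12 and 8 counts with FB23-2, against 44 and 58 in control (-2.65 ± 0.42 SE, edgeR adjusted p = 0.000804). The row was kept mainly through its control libraries, so its call is given only as a description. It shares 3 bases with MT-TI on the opposite strand, at chromosome M 4329 to 4331, and the 2 rows had like fold changes. Whether reads of the heavy-strand transcript enter this row was not tested.

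Nuclear chromosomes carry copies of mitochondrial DNA, and reads of near-identical copies can be placed on either. Of 390 pseudogene IDs named for a mitochondrial mRNA, 67 had counts, and MTATP6P1, MTND2P28 and MTCO1P12 on chromosome 1 held 99.1% of those counts. All copies together came to 1.14% and 1.11% of chromosome M counts with FB23-2, against 1.68% and 1.44% in control. MTATP6P1, at 633696 to 634376, held counts equal to 14.4% and 14.1% of those of MT-ATP6 with FB23-2, against 16.2% and 14.4% in control. MTND2P28, at 629640 to 630683, held 11.8% and 11.7% of the MT-ND2 count with FB23-2, against 13.5% and 12.4% in control. Both fell as the mitochondrial genes did, MTATP6P1 by 0.52 (SE 0.08, edgeR adjusted p = 0.00612) and MTND2P28 by 0.69 (SE 0.08, edgeR adjusted p = 0.000729). MTCO1P12 held 1.03% and 0.981% of the MT-CO1 count with FB23-2, against 1.56% and 1.01% in control, and did not pass (0.01 ± 0.28 SE, edgeR adjusted p = 0.980). MTND4P12, MTND5P11, MTND1P23, MTND5P1 and MTCO3P12 held 337 counts or fewer over the 4 libraries and did not pass. With the copies added to their mitochondrial genes, the mRNAs again counted 4 higher and 6 lower, and MT-ATP6 and MT-ND2 stood at -0.44 and -0.57.

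The nuclear genes that copy, transcribe and process mitochondrial DNA and RNA were lower on balance. Of 75 such genes, all tested, 44 were lower and 2 higher, with a median log2 fold change of -0.31 against 0.00 over all tested genes and against 20.3% of all genes called lower. The mitochondrial RNA polymerase POLRMT had 50.9 ± 0.00122 CPM with FB23-2 and 80.3 ± 0.445 CPM in control (SD, n = 2 each; -0.66 ± 0.05 SE, edgeR adjusted p = 1.69e-05). Its partners TFAM (-0.38 ± 0.05 SE), which packages mitochondrial DNA and bends it at promoters, and TFB2M (-0.93 ± 0.10 SE), which opens the promoter, also fell. The elongation factor TEFM did not pass (0.17 ± 0.10 SE, edgeR adjusted p = 0.208). MRPL12, a ribosomal protein reported to bind the polymerase, fell by 1.12. In the transcription list 6 of 10 genes were lower and 0 higher.

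Among genes of replication and maintenance, 8 of 17 were lower and 1 higher, beside 20.3% lower and 21.8% higher over all tested genes. TWNK, the replicative helicase, had 15.0 ± 0.557 CPM with FB23-2 and 49.7 ± 2.40 CPM in control (SD, n = 2 each), a log2 fold change of -1.74 ± 0.08 SE (edgeR adjusted p = 9.83e-07). ATAD3A, a membrane ATPase of nucleoids (-0.94 ± 0.06 SE), and SSBP1, the single-strand binding protein (-0.91 ± 0.06 SE), fell too. RRM2B, a ribonucleotide reductase subunit that supplies nucleotides outside S phase, rose (0.38 ± 0.06 SE, edgeR adjusted p = 0.000946).

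Of 14 genes listed under cleavage and processing of the primary transcripts, which include RNA-binding proteins beside the nucleases, 10 were lower and 0 higher. The shares over all tested genes were again 20.3% lower and 21.8% higher. TRMT10C, a subunit of mitochondrial RNase P, had 41.7 ± 2.53 CPM with FB23-2 and 71.5 ± 3.20 CPM in control (SD, n = 2 each; -0.78 ± 0.07 SE, edgeR adjusted p = 2.31e-05). ELAC2, which cuts the 3′ side of tRNAs, fell by 0.64 (SE 0.06). FASTKD2 (-0.71 ± 0.07 SE) and TBRG4 (-0.70 ± 0.05 SE), members of the FASTK family of RNA-binding proteins, fell as well. FASTKD5, a member known for sites that no tRNA marks, such as the start of MT-CYB and of MT-CO3, did not pass (-0.11 ± 0.07 SE, edgeR adjusted p = 0.260).

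Of 12 genes of RNA stability and decay, 9 were lower and 0 higher, beside 20.3% lower and 21.8% higher over all tested genes. LRPPRC, which together with SLIRP stabilises mitochondrial mRNAs, had 113 ± 0.350 CPM with FB23-2 and 178 ± 10.9 CPM in control (SD, n = 2 each; -0.66 ± 0.05 SE, edgeR adjusted p = 1.19e-05). SLIRP fell by 0.91 (SE 0.23, edgeR adjusted p = 0.0374), a call lost without FB23-2 replicate 1 or replicate 2. The exoribonuclease PNPT1 (-0.88 ± 0.06 SE) and the helicase SUPV3L1 (-0.31 ± 0.07 SE), which form the degradosome, fell, the second with its call lost without control replicate 1. DDX28, an RNA helicase, fell by 0.80 (SE 0.09). In the list of rRNA and tRNA modification, 11 of 22 were lower and 1 higher. The 16S rRNA methyltransferase MRM1 (-2.01 ± 0.21 SE), the queuosine enzyme QTRT1 (-1.23 ± 0.10 SE) and the pseudouridine synthase PUS1 (-1.16 ± 0.09 SE) fell, while METTL15, a 12S rRNA methyltransferase, rose (0.35 ± 0.08 SE).

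Nuclear partners of the mitochondrial subunits were compared complex by complex. Over 75 nuclear subunits, 35 were lower and 3 higher, with a median of -0.23. The shares over all tested genes were 20.3% lower and 21.8% higher. In complex I the 37 nuclear subunits gave 16 lower and 2 higher, with NDUFAB1 (-0.73 ± 0.07 SE) and NDUFB4 (-0.59 ± 0.11 SE) lower and NDUFA12 (0.38 ± 0.05 SE) and NDUFC2 (0.27 ± 0.05 SE) higher, beside 2 lower and 3 higher of 7 mitochondrial ones. The NDUFB4 call was lost without FB23-2 replicate 1 or replicate 2. In complex III, 5 of 9 were lower and 0 higher, among them UQCRFS1, the iron-sulfur protein (-0.58 ± 0.06 SE), and UQCR11 (-0.44 ± 0.07 SE), beside MT-CYB at -0.74. In complex IV, 4 of 11 were lower, such as COX7C (-0.53 ± 0.06 SE) and COX5A (-0.48 ± 0.09 SE), and 1, COX8A (0.54 ± 0.05 SE), was higher. In complex V, 10 of 18 were lower and 0 higher, with ATP5MC1 (-0.97 ± 0.06 SE) and ATP5F1D (-0.86 ± 0.11 SE) furthest down among the genes that passed, beside MT-ATP6 and MT-ATP8, both lower.

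**Figure D4:**
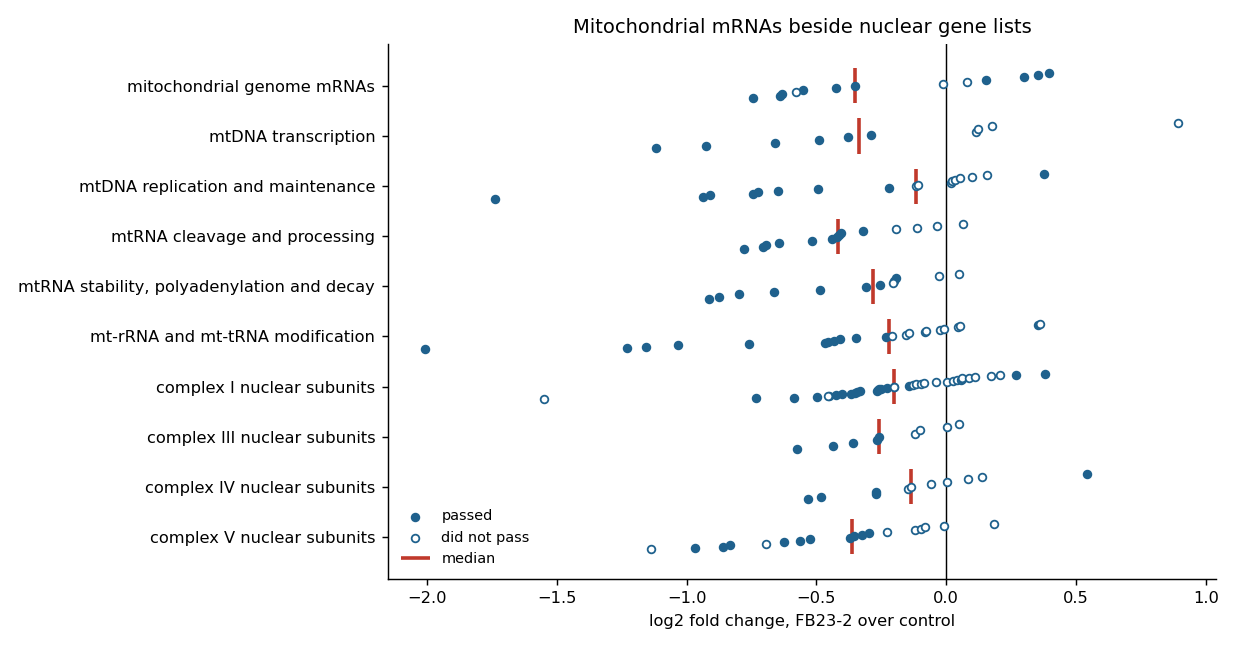
Log2 fold change, FB23-2 over control, of the 13 mitochondrial mRNAs (top) and of the nuclear gene lists below them, with 1 point per gene, filled where it passed, and a red bar at each list's median. The mitochondrial mRNAs lie on both sides of 0 with a median of -0.35, and the medians of the nuclear lists lie between -0.42 and -0.12.

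Of the 13 mRNAs, 8 passed under every alternative that could be fitted (MT-ND1, MT-ND2, MT-CO1, MT-ATP6, MT-CO3, MT-ND4, MT-ND6 and MT-CYB). The tRNA rows MT-TF, MT-TI, MT-TG, MT-TR, MT-TH, MT-TS2, MT-TL2, MT-TA, MT-TN, MT-TY and MT-TP did so as well. So did MT-TQ, a row kept mainly through its control libraries, whose call is given only as a description. Among all tested genes, 14.6% (without control replicate 1) to 17.4% (without FB23-2 replicate 2) were called higher with 1 library left out, the others giving 15.9% without FB23-2 replicate 1 and 14.8% without control replicate 2. Those called lower were 16.7% without FB23-2 replicate 1, 16% without FB23-2 replicate 2, 16% without control replicate 1 and 14% without control replicate 2. Library size scaling called 24.6% of genes higher and 18% lower, and a replicate block 22.5% higher and 21.4% lower.

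**Figure D5:**
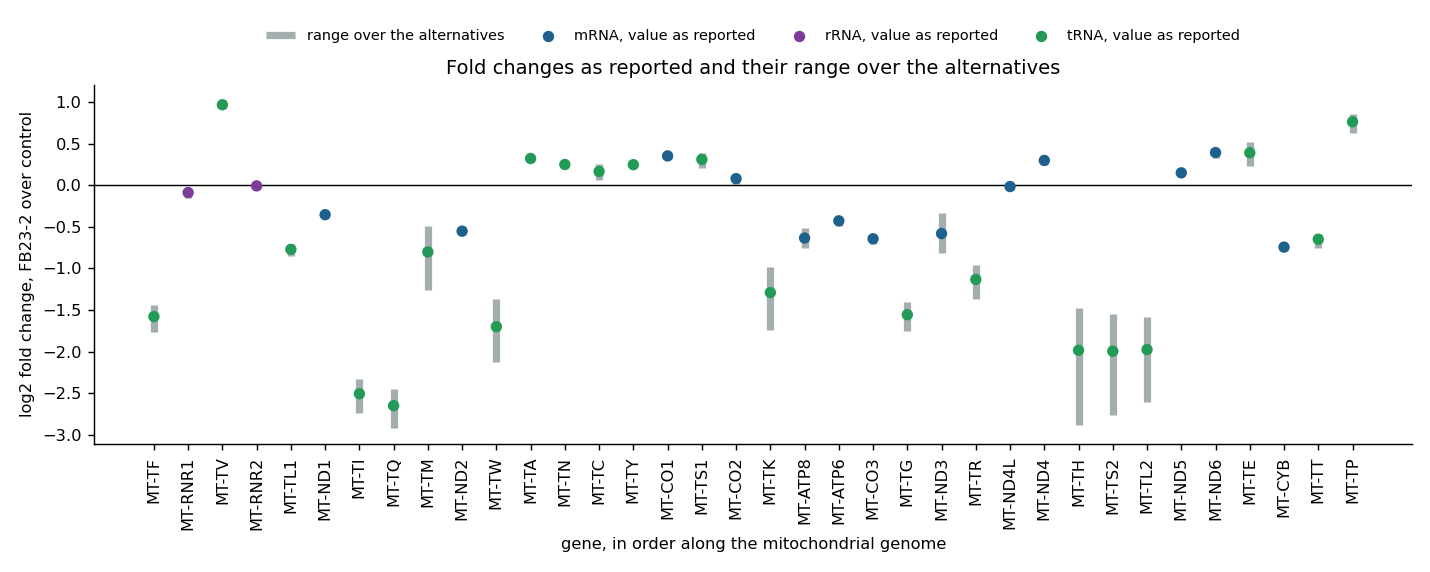
Log2 fold change, FB23-2 over control, as reported (points) and its range over the alternatives (grey bars) for the 36 tested members in genome order. The bars are longest for MT-TH, MT-TS2 and MT-TL2, and cross 0 for MT-RNR2 and MT-ND4L.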

How the data were processed

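RNA libraries of J.gamma1 cells (2 with FB23-2, 2 with DMSO) were made from total RNA with a TruSeq RNA kit, per the labels' protocols, which call the replicates independent biological samples. The authors deposited whole-number counts per gene with no normalization. The submitters' processing notes name HISAT2 2.2.0, StringTie and the hg38 build. The sources used here do not state the counting step, its annotation, strand setting or treatment of multi-mapped reads.

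Names, coordinates and sequences came from GENCODE release 29, on the same build. Counts were filtered with filterByExpr (minimum count 10), scaled by TMM and compared with edgeR 4.0.16 (glmQLFit, robust, and glmQLFTest) in R 4.3.3, with Benjamini-Hochberg adjustment over 18817 genes and a threshold of 0.05. The SE is the absolute log2 fold change over the square root of F. The fit was tested on simulated data whose coefficient of variation between replicates was set below the 10.5% estimated for these data. Its error rate at the variation of these data was not tested. A floor of 3 counts covers counting error alone. No batch is given in the labels.

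Members and gene lists were chosen with earlier results of these data known. Every member is reported. From each nuclear list the text names POLRMT, TFAM, TFB2M, TEFM, LRPPRC, SLIRP, FASTKD5, ELAC2, PNPT1 and SUPV3L1, plus up to 3 called genes per direction with the largest change (2 per complex), and the most counted nuclear copies. Alternatives were other scalings (RLE, upper quartile, library size, genes not on chromosome M, mitochondrial mRNA), no filter, DESeq2 1.42.0, each library left out, a replicate block, and nuclear copies added. Merging of overlapping pairs was added after seeing the data.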

Additional observations from a re-analysis of the deposited data

How the results depend on the processing

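Over the 36 tested members and the alternatives, 459 of 502 fold changes kept their direction and their side of the threshold, 30 lost a call, 9 gained one and 4 changed sign without passing. The sign changes were MT-RNR2 at 0.042 with library size scaling, 0.012 without FB23-2 replicate 2 and 0.021 without control replicate 1, and MT-ND4L at 0.034 with library size scaling. With 1 library left out MT-RNR2 ranged over -0.045 to 0.021. With 1 library left out, 3 to 4 mRNAs were higher and 5 to 7 lower, and over all members 7 to 12 were higher (7 without control replicate 2) and 14 to 16 lower. The machinery then gave 2 to 3 higher and 36 to 42 lower, and the nuclear subunits 3 to 5 higher and 25 to 38 lower. The shares of all tested genes called with 1 library left out are given above. Library size scaling called 4 machinery genes and 8 nuclear subunits higher, each of 75, beside 24.6% of all tested genes. The replicate block called 5 nuclear subunits higher, 5 mRNAs higher and 6 lower, beside 22.5% higher and 21.4% lower over all tested genes. Replicate numbers are shared by the groups, but the labels do not pair them, and deviations of same-numbered libraries had a correlation of 0.06 over genes. The share of counts on chromosome M differed by 0.135 to 0.422 percentage points with 1 library left out. A fit without 1 library leaves 1 group with a lone sample, assumed to vary like the other group. The cause of these shifts was not tested.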
